A study of Mus musculus with 17 samples.

Results

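The genes described here encode the enzymes and transporters that bring glucose into muscle fibres, store it as glycogen, release it again and carry it through glycolysis to lactate. They comprised 34 genes chosen by name. Of these, 31 had a probe set listed with that symbol alone, and 30 entered the fit across 12393 genes with 1 probe set each, the brightest by its average over the 17 arrays. Gpi1, Pfkfb1 and Eno1 had no such probe set, and Gapdh was measured only on 3 Affymetrix control probe sets, which are given separately.

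RNA was measured on Affymetrix expression arrays, 1 per sample, from the tibialis anterior, a fast-twitch muscle at the front of the shin. The 6 normal samples came from wild-type mice. The 6 mdx samples came from the mdx line, a mouse model of Duchenne muscular dystrophy that carries a mutation in the dystrophin gene. The 5 fiona samples came from a transgenic line that expresses a high level of utrophin, a protein related to dystrophin, on the mdx background, so that fiona and mdx mice share the dystrophin mutation. All mice were 56 days old and labelled male, left and right muscles of a mouse were combined, and each array received 8 µg of labelled total RNA. The labels give neither the strain of the wild-type mice nor the promoter of the transgene. Each array was labelled a biological replicate. Precision is limited by how many arrays there are.

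In fast muscle, glycolysis supplies much of the ATP for brief, strong contractions, and glycogen stored in the fibre is its main fuel. Muscle uses its own isozymes for many of the steps: hexokinase 2 for the phosphorylation of glucose, the muscle subunit of phosphofructokinase, aldolase A, phosphoglycerate mutase 2, beta-enolase and lactate dehydrogenase A. Partner isozymes of the same steps, such as hexokinase 1, phosphoglycerate mutase 1 and lactate dehydrogenase B, are more usual in other cells, in the heart or in oxidative fibres.

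Values are log2 expression levels, so a difference of 1 is a doubling. A level is compared only between arrays for the same probe set, because probe sets differ in brightness. A member was called changed at an adjusted p under 0.05 in limma, with Benjamini-Hochberg adjustment over all 12393 genes. The array medians lay between 3.52 and 3.82, and bacterial control probe sets, for which no label says that RNA was added, had array levels between 2.64 and 2.99. Probe sets at that level are described as at control level.

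The labels were set against the genes they name. On 1 Dmd probe set the 6 normal arrays lay between 6.33 and 6.88, the 6 mdx arrays between 3.27 and 3.52 and the 5 fiona arrays between 3.23 and 3.53. On 1 Utrn probe set 4 of 5 fiona arrays, 0 of 6 mdx arrays and 0 of 6 normal arrays lay above control level. The Utrn probe set used in the fit did not follow the fiona label, with 6.98 ± 0.39 in mdx and 6.57 ± 0.82 in fiona muscle (SD, n = 6 and 5; adjusted p = 0.307). A female pattern of Xist and Eif2s3y appeared on 7 arrays: 1 normal, 2 mdx and 4 fiona. Array 6 of mdx had both signals, with Eif2s3y at 8.11 and Xist at 5.40, under the cutoff of 6. It was kept among the arrays with the labelled sex pattern. Within the groups, the arrays divided into 2 sets by the sign of the first component of the residuals, which carried 42.5% of their variance. Set 1 held 3 normal, 3 mdx and 2 fiona arrays and set 2 held 3 arrays of each group. The labels name no batch that matches these sets. They were made from the residuals of these same arrays, over the genes outside the 34 members. A fit with the set as a block therefore has less residual spread by the way the sets were made. Between mdx and normal muscle it called 1238 genes, against 578 without the block. Calls gained with that block are no independent support. Array 1 of mdx had a Gapdh 3′ minus 5′ signal of 2.54, against -0.43 to 0.06 on the other 16 arrays, a measure of RNA integrity.

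Compared with normal muscle, the called changes in mdx muscle were in partner isozymes and in a subunit of glycogen phosphorylase kinase, and most members did not pass the test. Pgam1 was 2.69-fold higher, Ldhb 3.02-fold lower and Phkg1 1.92-fold lower in mdx muscle. The muscle isozymes Pgam2 and Ldha differed by 0.06 and 0.08 on the log2 scale and were not called. In all, 1 of 30 members rose, 2 fell and 27 did not pass the test. Across all genes tested, 4.66% were called, 3.22% higher and 1.44% lower; the share was 8.07% among genes above the median level, where 29 of the 30 members lay, and 1.26% among those below it. The median difference of the members was -0.17, against -0.04 over all genes, and 7 members had an unadjusted p under 0.05, as did 17.3% of all genes.

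Compared with mdx muscle, fiona muscle had lower Pgam1 and Hk1 and higher Hk2, Ldhb and Aldoc. These 5 calls, 3 higher and 2 lower, stand against a background of 38.9% of all genes called, 32.1% higher and 6.79% lower, so the share of members called was below that of all genes. That background depended on the level: 19% of the genes above the median level were called and 58.7% of those below it, and 29 of the 30 members lay above it. It also depended on the arrays: without fiona arrays 3 and 5, whose 18S control signals were the highest, 2.18% of all genes and 1 member, Pgam1, were called. Scaling moved the split of the 3977 higher and 841 lower genes to 1417 and 753 when arrays were centred on their medians and to 1470 and 597 after quantile normalization. The same settings moved the 399 higher and 179 lower genes of mdx against normal muscle to 516 and 1501 and to 434 and 302. This comparison and the one before it share the mdx arrays, so opposite signs in them are not independent of each other.

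Between fiona and normal muscle, 0 of 30 members and 0 of 12393 genes were called in limma, that is 0% of all genes. Groups did not overlap for 0 members and 0.839% of all genes. At an unadjusted p under 0.05 there were 3 members and 2626 genes (21.2%). The lowest adjusted p among the members was 0.210, for Phkg1, Pfkfb3 and Aldoc. Without fiona array 2, 2 members, Aldoc (0.17 higher, adjusted p = 0.0434) and Phkg1 (0.71 lower on the log2 scale, adjusted p = 0.0486), and 974 genes were called.

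**Figure D1:**
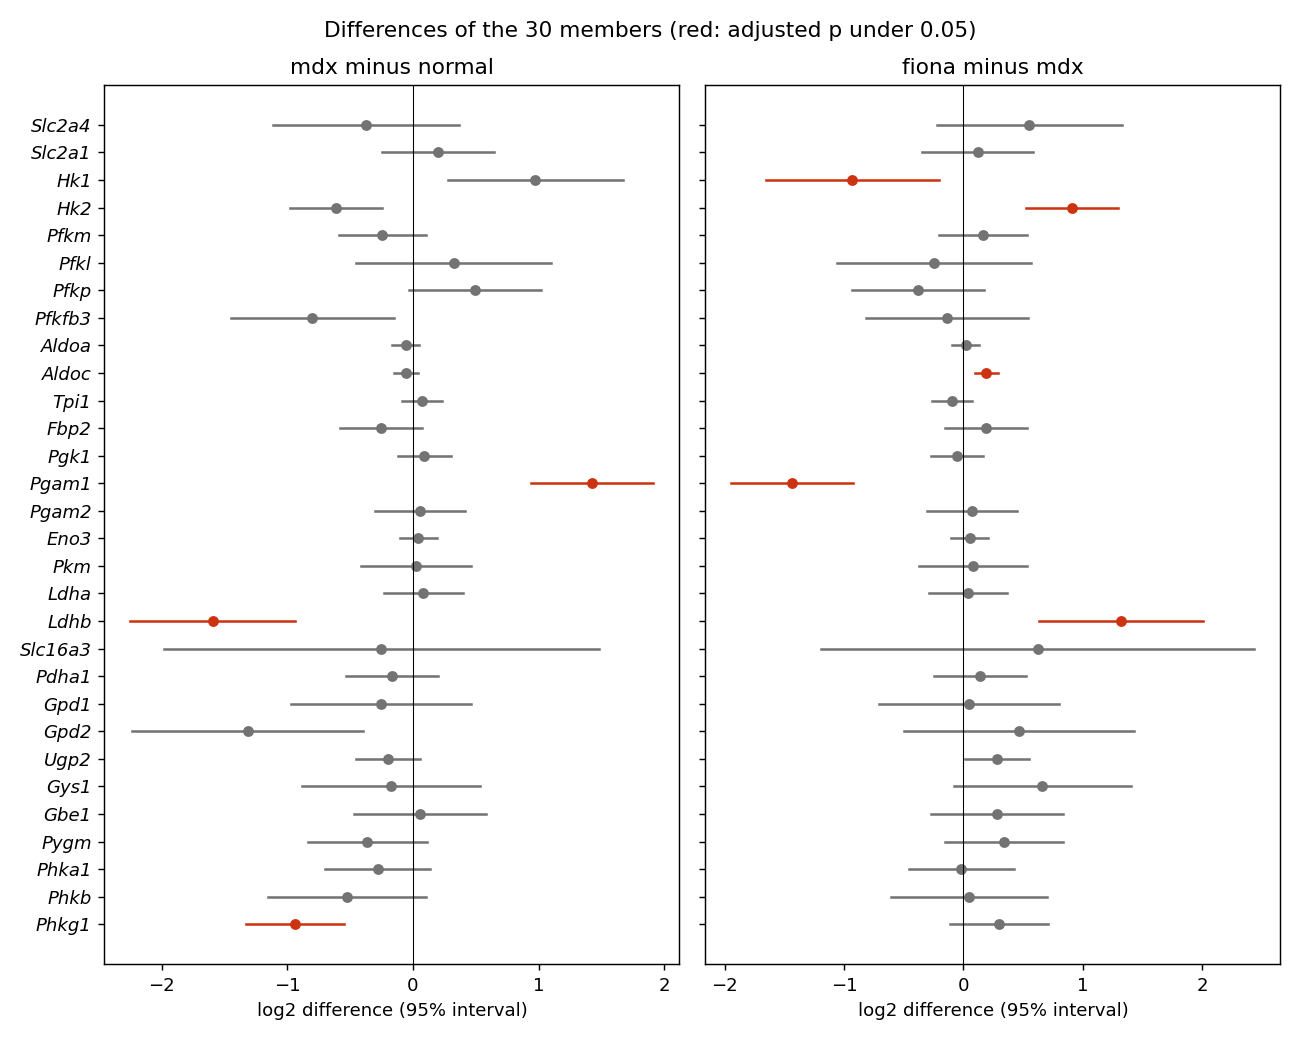
Log2 differences of the 30 members between mdx and normal muscle (left) and between fiona and mdx muscle (right), with 95% intervals from limma; red marks an adjusted p under 0.05 over all genes. In mdx against normal muscle Pgam1 lies at 1.43, Ldhb at -1.59 and Phkg1 at -0.94, and in fiona against mdx muscle Pgam1 lies at -1.43 and Ldhb at 1.32.

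Glucose enters the fibre through Slc2a4, the insulin-responsive transporter GLUT4, and Slc2a1, the basal transporter GLUT1. Neither was called in any comparison. For Slc2a4 the normal arrays ranged from 10.38 to 11.66 around a median of 11.06, and the mdx arrays from 10.20 to 11.53 around 10.37. The fiona arrays measured 11.02, 11.54, 11.67, 10.18 and 11.84. The 3 groups overlapped widely. The log2 differences were -0.37 between mdx and normal muscle (95% interval -1.11 to 0.36) and 0.55 between fiona and mdx muscle (-0.22 to 1.33). Slc2a1 differed by 0.20 and 0.12 in the same comparisons.

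The phosphorylation of glucose, which traps it in the cell, is carried out by the hexokinases. Hk2, the isozyme of insulin-responsive muscle, measured between 11.01 and 11.60 on normal arrays, with a median of 11.22, and between 10.14 and 11.03 on mdx arrays, with a median of 10.77. Fiona arrays stood at 11.66, 11.32, 11.34, 11.62 and 11.97. Every fiona array therefore lay above every mdx array, a pattern shared by 32.6% of all genes in one direction or the other, while normal and mdx arrays touched at their edges. Hk2 was 1.88-fold higher in fiona than in mdx muscle (log2 difference 0.91 ± 0.18 SE, adjusted p = 0.00795). That call was lost without fiona arrays 3 and 5 (0.86, adjusted p = 0.0509) and in set 2 alone (0.81, adjusted p = 0.239). On the arrays with the labelled sex pattern, of which 1 is a fiona array, the difference was 0.93. With the sex pattern as a covariate on all arrays the call was kept. Between mdx and normal muscle the difference of -0.61 ± 0.17 missed the threshold (adjusted p = 0.0571), and it passed with arrays centred on their medians (-0.66, adjusted p = 0.0335), after quantile normalization (-0.63, adjusted p = 0.0456) or with the array set as a block (adjusted p = 0.0334). It also passed without mdx array 4 (adjusted p = 0.0429) or mdx array 6 (adjusted p = 0.0385).

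Hk1, the hexokinase of most other tissues, was highest on average in mdx muscle. Normal arrays lay between 4.91 and 5.56, with a median of 4.98, and fiona arrays at 4.94, 5.63, 5.11, 4.93 and 5.13. The mdx arrays spread from 4.94 to 7.47 around a median of 6.09, and the highest of them was array 1. The groups overlapped, because mdx array 3 lay with the normal arrays. Hk1 was 1.90-fold lower in fiona than in mdx muscle (log2 difference -0.93 ± 0.34 SE, adjusted p = 0.0427). That call was lost when mdx array 1, 4 or 6 or fiona array 1, 3, 4 or 5 was left out, and without mdx array 1 the difference was -0.65 (adjusted p = 0.0676). In all it was lost in 19 of 26 alternatives, among them median-centred arrays, quantile normalization, the mean of its probe sets, array weights, the replicate block and each array set alone. The difference of 0.97 between mdx and normal muscle was not called (adjusted p = 0.114), although it was called without mdx array 3 (1.20, adjusted p = 0.0296). It was also called with array weights (0.77, adjusted p = 0.0244) and with the array set as a block (0.97, adjusted p = 0.0378). A second, dimmer Hk1 probe set, above control level on 7 of 17 arrays, differed by 0.33 and -0.12 in the same comparisons and was not called.

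**Figure D2:**
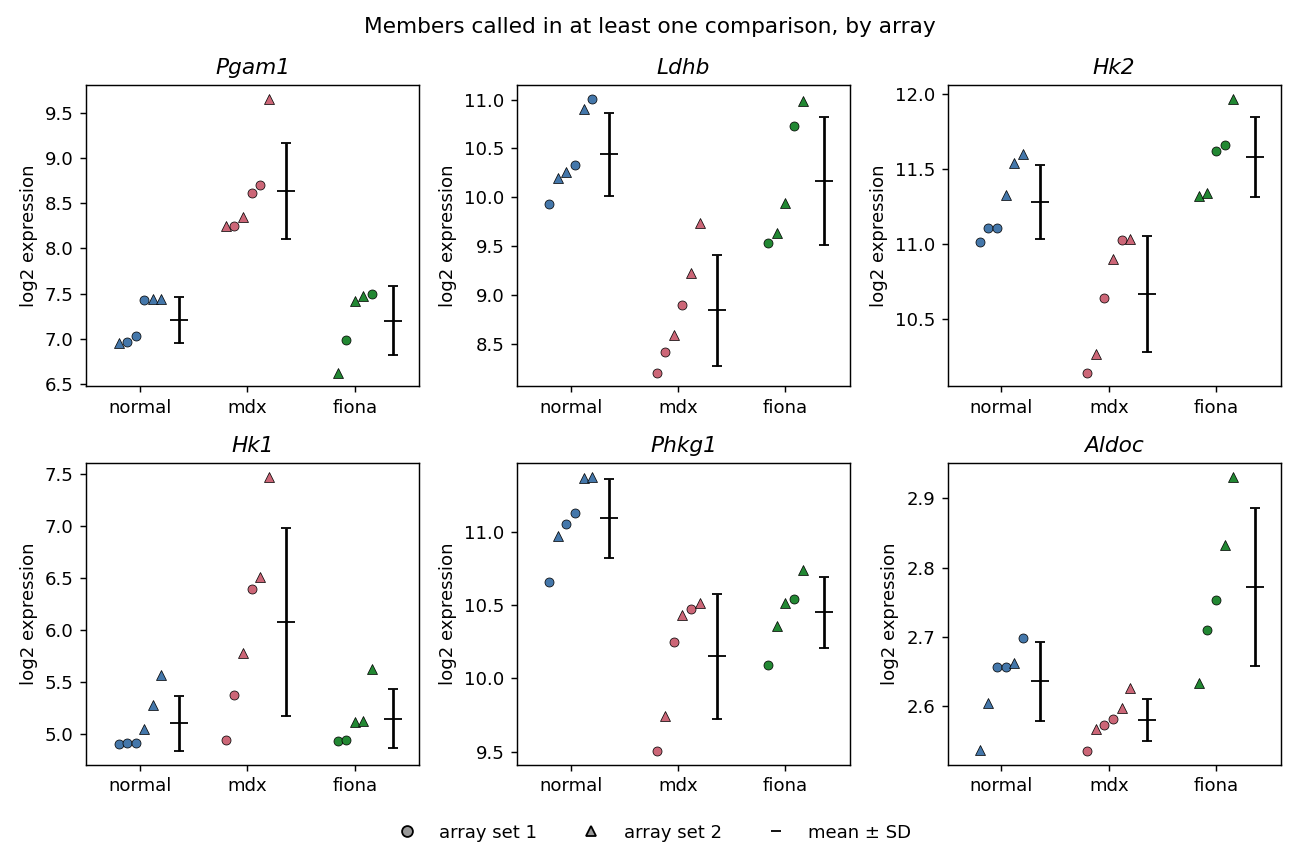
Log2 expression of the 6 members called in at least 1 comparison, by array, in 6 normal, 6 mdx and 5 fiona samples; circles are arrays of set 1, triangles arrays of set 2, and bars give mean ± SD. The mdx arrays of Pgam1 all lie above those of both other groups, the mdx arrays of Ldhb all lie below the normal arrays, and Aldoc stays between 2.54 and 2.93, at control level.

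The enzymes of upper glycolysis split glucose 6-phosphate into triose phosphates. Pfkm, Pfkl and Pfkp encode the muscle, liver and platelet subunits of phosphofructokinase, the step that commits glucose to glycolysis, and Pfkfb3 encodes the enzyme that makes its activator fructose 2,6-bisphosphate. Of the 8 measured members of this step and the next ones, 0 were called between mdx and normal muscle and 1, Aldoc, between fiona and mdx muscle. Pfkm differed by -0.24 and 0.16, Aldoa, the muscle aldolase, by -0.06 and 0.02, Tpi1, triose phosphate isomerase, by 0.07 and -0.10, and Fbp2, the muscle fructose bisphosphatase, by -0.26 and 0.19. The intervals of Aldoa were narrow, from -0.17 to 0.05 and from -0.09 to 0.14. They hold for its brightest probe set, which had the highest mean level of all genes. In a fit over 20383 probe sets, the dimmest of its 4 probe sets was called higher in fiona than in mdx muscle (0.31, adjusted p = 0.0251). The others differed by 0.02, 0.14 and 0.18 and were not called.

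Pfkfb3 had the most negative difference of this group. Normal arrays ranged from 8.39 to 9.68, mdx arrays from 7.10 to 9.00 and fiona arrays from 7.56 to 8.54, so all groups overlapped. The differences of -0.80 between mdx and normal muscle (adjusted p = 0.174) and -0.94 between fiona and normal muscle (adjusted p = 0.210) were not called, and fiona and mdx muscle differed by -0.13. In set 2 alone the difference between mdx and normal muscle was called (-1.18, adjusted p = 0.0289). Pfkl and Pfkp differed by 0.32 and 0.49 between mdx and normal muscle and were not called. Their highest mdx values, 6.02 and 5.92, were both on array 1.

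Aldoc, the aldolase of brain, was at control level on all 17 arrays. Its fiona arrays measured 2.71, 2.63, 2.83, 2.75 and 2.93, against 2.54 to 2.63 on mdx arrays with a median of 2.58 and 2.54 to 2.70 on normal arrays with a median of 2.66. The called difference of 0.19 ± 0.05 SE between fiona and mdx muscle (adjusted p = 0.0135) is a 1.14-fold change in signal that carries no level of the gene. The bacterial control level moved with it, from 2.65 to 2.75 on mdx arrays and from 2.75 to 2.99 on fiona arrays, and its part in the difference was not tested.

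Lower glycolysis turns triose phosphates into pyruvate and yields ATP. Pgam1 encodes the brain-type phosphoglycerate mutase, which moves the phosphate of 3-phosphoglycerate, and Pgam2 its muscle isozyme. Pgam1 measured between 6.95 and 7.44 on normal arrays, with a median of 7.22, and between 8.24 and 9.66 on mdx arrays, with a median of 8.48. On fiona arrays it measured 6.99, 7.42, 6.62, 7.50 and 7.48. All mdx arrays lay above all normal and all fiona arrays, while normal and fiona arrays overlapped. Groups that do not overlap were found for 4.53% of all genes between mdx and normal muscle, and for 3 of the 30 members: Pgam1, Ldhb and Phkg1.

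Pgam1 was 2.69-fold higher in mdx than in normal muscle (log2 difference 1.43 ± 0.23 SE, adjusted p = 0.00132) and 2.70-fold lower in fiona than in mdx muscle (-1.43 ± 0.24, adjusted p = 0.00228). Fiona and normal muscle differed by -0.01, with an interval from -0.51 to 0.50. The highest value was on mdx array 1, and without that array the differences were 1.22 (adjusted p = 0.00053) and -1.23 (adjusted p = 0.000939). Within set 1 they were 1.38 and -1.28, both called, and within set 2 they were 1.47 and -1.58 (adjusted p = 0.151 and 0.174). Only on the arrays with the labelled sex pattern, which leave 1 fiona array, fiona muscle differed from mdx muscle by -0.89 (adjusted p = 0.0530).

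The other enzymes of lower glycolysis differed little between the groups. Between mdx and normal muscle Pgam2 differed by 0.06, Pgk1, phosphoglycerate kinase, by 0.09, Eno3, the muscle enolase, by 0.04 and Pkm, pyruvate kinase, by 0.03. Between fiona and mdx muscle their differences ran from -0.05 to 0.08. The intervals of Eno3 ran from -0.10 to 0.19 and from -0.10 to 0.21. None of these 4 genes was called in any of the 3 comparisons, although after quantile normalization Eno3 was called higher in mdx than in normal muscle, by 0.18 (adjusted p = 0.0101).

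Gapdh, the glyceraldehyde 3-phosphate dehydrogenase, was followed on its 3 control probe sets in a fit over 20383 probe sets. The 3′ probe set differed by -0.02 between mdx and normal muscle and by 0.15 between fiona and mdx muscle, the middle one by -0.15 and 0.24 and the 5′ one by -0.51 and 0.56. None was called. On the 5′ probe set mdx array 1 measured 11.33, and the mdx arrays had a median of 14.44, against 14.47 on the normal arrays.

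The fate of pyruvate is set by lactate dehydrogenase, which makes lactate from it, by Slc16a3, the lactate exporter MCT4 of glycolytic fibres, and by the pyruvate dehydrogenase complex, whose E1 alpha subunit Pdha1 encodes. Ldhb, the heart-type subunit of lactate dehydrogenase, measured between 9.92 and 11.01 on normal arrays, with a median of 10.29, and between 8.20 and 9.74 on mdx arrays, with a median of 8.74. The fiona arrays measured 10.73, 10.98, 9.64, 9.53 and 9.94. All normal arrays lay above all mdx arrays, and fiona arrays 3 and 4 lay below the highest mdx array.

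Ldhb was 3.02-fold lower in mdx than in normal muscle (log2 difference -1.59 ± 0.31 SE, adjusted p = 0.00566) and 2.50-fold higher in fiona than in mdx muscle (1.32 ± 0.32, adjusted p = 0.0135). Fiona and normal muscle differed by -0.27, with an interval from -0.96 to 0.41. The first difference was -1.92 in set 1 (adjusted p = 0.0412) and -1.27 in set 2 (adjusted p = 0.234). The call between fiona and mdx muscle was lost without fiona arrays 3 and 5 (1.57, adjusted p = 0.0509), in set 2 alone (1.00, adjusted p = 0.244) and on the arrays with the labelled sex pattern, with 1 fiona array (0.75, adjusted p = 0.253). Ldha, the muscle-type subunit, differed by 0.08 between mdx and normal muscle and by 0.04 between fiona and mdx muscle, with intervals from -0.23 to 0.40 and from -0.29 to 0.37. Pdha1 differed by -0.16 and 0.14. Slc16a3 differed by -0.25 and 0.62 with a wide spread in every group (normal 9.19 ± 1.71, mdx 8.94 ± 1.21, fiona 9.57 ± 1.41, SD), and its intervals reached from -1.98 to 1.48 and from -1.19 to 2.44.

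To show the DNA before the genes whose isozymes differed most, RefSeq promoter sequences were matched by symbol. Sequences on the GRCm38.p6 build were found for 32 of the 34 members. The letters searched were ACGTG or its reverse complement CACGT, the core of the site bound by hypoxia-inducible factors and, as part of CACGTG, by the E-box proteins USF and MYC; a CACGTG counts as 2 overlapping matches. In the 300 bases from 250 before to 50 after the start, at least 1 match stood in 40.8% of the 49 member promoters (17 of 32 genes) and in 19.6% of all 32851 promoters. The wider motif CANNTG stood in 73.5% of the member promoters and in 72.3% of all. Matches are letters in a window and not measured binding. For a gene with several listed starts, only the entry with the lowest coordinate is printed. Ldha has a second window (chr7:46846832-46847131, plus strand), not printed, with 0 matches. The 250 bases before the start are given for both lactate dehydrogenase genes, for Pgam1 and for Hk2, 5′ to 3′ on the gene's strand, with the matches in capitals: Pgam1 (chr19:41911621-41911870, plus strand) with 1 match, Ldhb (chr6:142507958-142508207, minus strand) with 0, Ldha (chr7:46845554-46845803, plus strand) with 5, and Hk2 (chr6:82774455-82774704, minus strand) with 2.
Pgam1: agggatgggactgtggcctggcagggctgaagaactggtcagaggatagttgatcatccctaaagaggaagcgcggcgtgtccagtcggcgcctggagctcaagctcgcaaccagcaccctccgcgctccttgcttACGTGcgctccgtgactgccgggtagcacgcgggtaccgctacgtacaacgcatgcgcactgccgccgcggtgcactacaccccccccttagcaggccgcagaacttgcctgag
Ldhb: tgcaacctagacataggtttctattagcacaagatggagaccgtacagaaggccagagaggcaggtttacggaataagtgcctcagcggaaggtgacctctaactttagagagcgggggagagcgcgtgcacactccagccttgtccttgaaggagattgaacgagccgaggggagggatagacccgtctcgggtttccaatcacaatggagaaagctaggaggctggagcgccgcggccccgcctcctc
Ldha: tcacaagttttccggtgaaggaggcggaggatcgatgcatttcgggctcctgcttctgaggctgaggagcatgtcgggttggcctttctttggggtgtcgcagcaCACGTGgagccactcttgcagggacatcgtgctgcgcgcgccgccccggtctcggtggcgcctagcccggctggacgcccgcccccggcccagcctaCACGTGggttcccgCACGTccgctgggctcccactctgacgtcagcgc
Hk2: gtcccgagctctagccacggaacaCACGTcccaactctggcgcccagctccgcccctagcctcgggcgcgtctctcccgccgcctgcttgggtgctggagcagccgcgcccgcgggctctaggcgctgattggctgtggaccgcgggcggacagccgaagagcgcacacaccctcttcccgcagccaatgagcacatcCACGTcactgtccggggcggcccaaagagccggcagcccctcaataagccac

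The glycerol phosphate shuttle passes electrons from glycolysis to the respiratory chain through the cytosolic enzyme Gpd1 and the mitochondrial enzyme Gpd2. Gpd2 had the largest difference of a member not called between mdx and normal muscle, -1.32 ± 0.43 SE (adjusted p = 0.108). Normal arrays ranged from 8.54 to 9.47 and mdx arrays from 5.90 to 8.74, and the lowest mdx value was on array 1. Fiona values were 8.84, 8.04, 7.36, 8.70 and 7.60. Gpd2 was lower on set 2 than on set 1 arrays, by 1.12 on average. With the array set, which was made from these same arrays, as a block the difference between mdx and normal muscle was called (adjusted p = 0.00683). Without mdx array 1 that difference was -0.97 (adjusted p = 0.181). Gpd1 differed by -0.25 and 0.05.

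Glycogen is built from UDP-glucose, made by Ugp2, through glycogen synthase, Gys1, and the branching enzyme Gbe1. None of the 3 was called in any comparison. Between mdx and normal muscle Ugp2 differed by -0.20, Gys1 by -0.17 and Gbe1 by 0.05. Between fiona and mdx muscle the differences were 0.28 for Ugp2 (adjusted p = 0.0825), 0.66 for Gys1 (adjusted p = 0.144) and 0.28 for Gbe1 (adjusted p = 0.414). With the array set as a block Gys1 (0.56, adjusted p = 0.0113) and Ugp2 (0.31, adjusted p = 0.0166) were called.

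Glycogen breakdown is carried out by the muscle phosphorylase Pygm, which phosphorylase kinase switches on. Phka1, Phkb and Phkg1 encode the muscle alpha, the beta and the catalytic gamma subunit of that kinase. Phkg1 measured between 10.65 and 11.37 on normal arrays, with a median of 11.09, and between 9.50 and 10.52 on mdx arrays, with a median of 10.34. The fiona arrays measured 10.54, 10.74, 10.36, 10.09 and 10.51. All mdx arrays lay below all normal arrays, and fiona arrays overlapped with both groups. Phkg1 was 1.92-fold lower in mdx than in normal muscle (log2 difference -0.94 ± 0.18 SE, adjusted p = 0.00614).

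In fiona muscle Phkg1 differed from mdx muscle by 0.30 (95% interval -0.11 to 0.71, adjusted p = 0.236), and from normal muscle by -0.64 (-1.05 to -0.23, adjusted p = 0.210). Its call between mdx and normal muscle was lost on the arrays with the labelled sex pattern (-0.70, adjusted p = 0.0506), in set 1 alone (-0.87, adjusted p = 0.0698) and in set 2 alone (-1.01, adjusted p = 0.0811). Pygm differed by -0.36 between mdx and normal muscle, Phka1 by -0.28 and Phkb by -0.52, and none of the 3 was called. Between fiona and mdx muscle they differed by 0.34, -0.02 and 0.05.

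Since several steps have an isozyme typical of muscle and a partner, the log2 value of the partner was subtracted from that of the muscle isozyme on each array. The size of such a difference also depends on the probes, so only its movement between groups is described, without a test. For Pgam2 minus Pgam1 the normal arrays lay between 5.62 and 6.66, the mdx arrays between 3.48 and 5.25 and the fiona arrays at 5.99, 6.08, 6.92, 5.54 and 6.00. For Hk2 minus Hk1 the normal arrays lay between 5.76 and 6.56, the mdx arrays between 2.79 and 5.27 and the fiona arrays at 6.72, 5.69, 6.23, 6.68 and 6.84. In both pairs all mdx arrays lay below all normal and all fiona arrays.

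For Ldha minus Ldhb the direction was opposite, with 2.51 to 3.85 on normal arrays and 4.14 to 5.63 on mdx arrays. On fiona arrays the pair stood at 2.84, 3.05, 4.60, 4.03 and 4.23, and arrays 3 and 5 of fiona overlapped with the mdx arrays. The group means of mdx and normal muscle differed by -1.37 for the phosphoglycerate mutases, by -1.59 for the hexokinases and by 1.68 for the lactate dehydrogenases. The other pairs moved less: -0.57 for Slc2a4 minus Slc2a1, -0.57 for Pfkm minus Pfkl and -0.74 for Pfkm minus Pfkp, all with overlapping groups. The lowest mdx value of Pgam2 minus Pgam1, Hk2 minus Hk1, Slc2a4 minus Slc2a1, Pfkm minus Pfkl and Pfkm minus Pfkp was on array 1. For Pfkm minus Pfkl it was 7.48, and the next lowest mdx value was 9.15. For Pfkm minus Pfkp these values were 7.58 and 8.97.

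**Figure D3:**
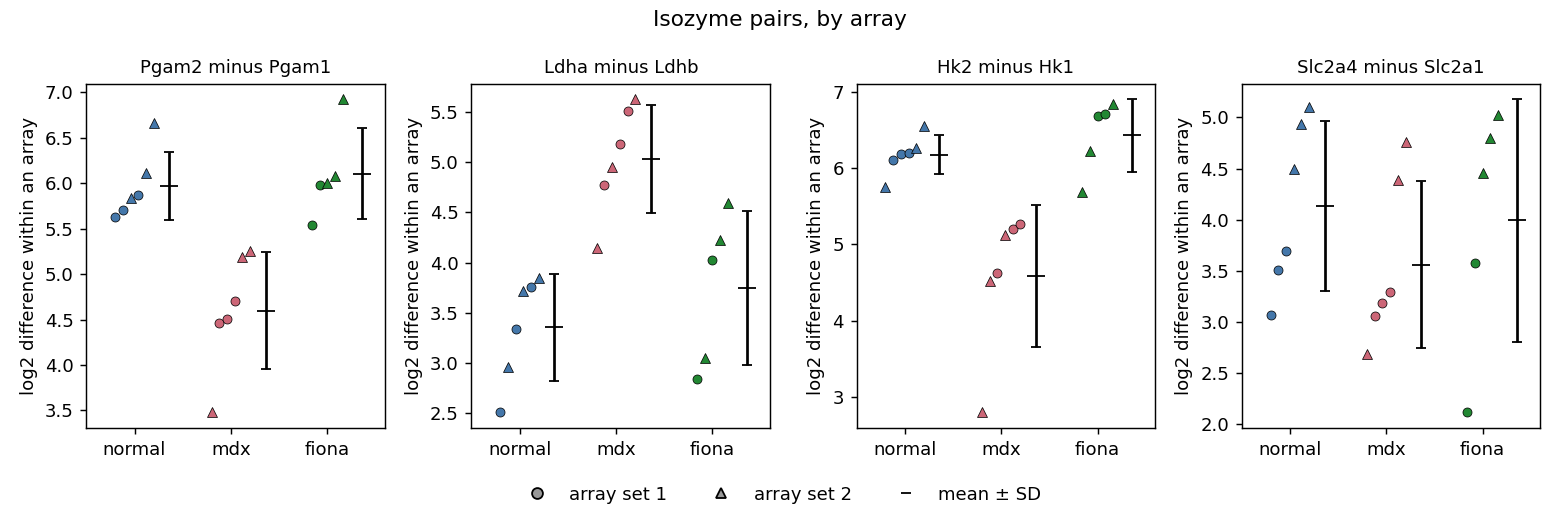
Log2 value of a muscle isozyme minus that of its partner on the same array, in 6 normal, 6 mdx and 5 fiona samples; circles are arrays of set 1, triangles arrays of set 2, and bars give mean ± SD. The mdx arrays of Pgam2 minus Pgam1 (3.48 to 5.25) and Hk2 minus Hk1 (2.79 to 5.27) lie below all others, and those of Ldha minus Ldhb (4.14 to 5.63) lie above all normal arrays.

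The samples are whole muscle, in which fewer cells of a type and less RNA per cell cannot be told apart. Of all genes, 3.22% were called higher and 1.44% lower in mdx than in normal muscle. Between fiona and mdx muscle 32.1% were called higher and 6.79% lower. Markers of macrophages moved with the changes in Pgam1 and Hk1. Of 20 measured macrophage markers 14 rose in mdx against normal muscle and 15 fell in fiona against mdx muscle. Their mean level per array lay between 4.35 and 5.06 for normal, 6.99 and 7.94 for mdx and 4.50 and 5.19 for fiona muscle. Of these markers Cd68, Itgam and Cd14 were at control level on all normal and all fiona arrays, and Cybb on all fiona arrays. Other markers of the list lay well above it in all groups, such as C1qb, which averaged 7.59 on normal and 7.90 on fiona arrays. Cd163 was lower in mdx than in normal muscle by 0.80 and was not called. Of 18 genes of muscle regeneration 9 rose and 0 fell in mdx muscle, and 2 rose and 12 fell in fiona against mdx muscle. Their mean level lay between 5.62 and 5.88 for normal, 6.66 and 8.55 for mdx and 5.89 and 6.30 for fiona muscle. Of 10 fibroblast markers 3 rose in mdx muscle and 8 fell in fiona against mdx muscle. The part of these cells in the differences of Pgam1, Hk1 and the pentose phosphate genes given below was not tested.

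Of 23 measured genes of fibre type 2 rose and 2 fell between mdx and normal muscle, and 3 rose and 5 fell between fiona and mdx muscle. Over all genes 3.22% rose and 1.44% fell in the first comparison, and 32.1% rose and 6.79% fell in the second. Myh2 and Myl3 had the direction of Ldhb. Myh2, the myosin heavy chain of fast oxidative fibres, fell from 13.38 ± 0.56 to 10.98 ± 1.51 (adjusted p = 0.0288) and measured 13.54 ± 0.86 in fiona muscle. Myl3, a slow myosin light chain, fell from 10.18 ± 0.60 to 7.44 ± 0.98 (adjusted p = 0.00223) and measured 9.35 ± 0.89 in fiona muscle. In the opposite direction Tnni1, the slow troponin I, rose from 4.67 ± 1.05 to 8.83 ± 1.19 (adjusted p = 0.00024) and measured 4.38 ± 0.48 in fiona muscle. Tpm3, a slow tropomyosin, rose from 7.91 ± 0.47 to 8.86 ± 0.32 (adjusted p = 0.00938) and measured 8.06 ± 0.16 in fiona muscle. The part of fibre types in the Ldhb difference was not tested. None of 10 endothelial markers was called in either comparison.

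Many members had more than 1 probe set, and in the fit over all 20383 probe sets 6 of 63 member probe sets were called between mdx and normal muscle (4.05% of all probe sets) and 16 between fiona and mdx muscle (40.2% of all). Between fiona and normal muscle 0 of the 63 were called (0.00491% of all). All 4 Ldhb probe sets were lower in mdx than in normal muscle, by 1.45 to 1.94, with adjusted p = 0.0070, 0.0305, 0.0877 and 0.0844, and all 4 were called higher in fiona than in mdx muscle, by 1.29 to 1.72. The 2 Phkg1 probe sets both fell in mdx muscle, with differences of -0.94 and -0.73. Pgam1 and Hk2 had 1 probe set each, so their calls have no such check. A name ending in x_at marks probes that can also match other transcripts, and 2 of the 4 Ldhb and 1 of the 2 Phkg1 probe sets are of that kind.

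Other members gave unlike values on their probe sets. Slc2a4 differed by -0.37 between mdx and normal muscle on the brighter and by -1.64 on the dimmer probe set (adjusted p = 0.345), where mdx array 1 measured 2.12 and the other mdx arrays 7.96 to 9.96. Gys1 differed by -0.17 and -1.05, Gpd1 by -0.25 and -1.20 on its 2 brightest probe sets, and Pdha1 by -0.16 and -0.91. None of these was called. On each of the dimmer probe sets mdx array 1 was the lowest mdx array, and in a fit without it, added after seeing the data, their differences were -0.52 for Slc2a4, -0.23 for Gys1, -0.70 for Gpd1 and -0.28 for Pdha1, beside -0.32, -0.26, -0.25 and -0.13 on the brighter ones. Of the 3 Phka1 probe sets the second brightest was called lower in mdx than in normal muscle (-0.55, adjusted p = 0.0171), beside -0.28 and -0.97 on the others, and without mdx array 1 the 3 differed by -0.16, -0.50 (adjusted p = 0.0392) and -0.51, in order of brightness. Of the 5 Ugp2 probe sets 2 were called higher in fiona than in mdx muscle (0.32, adjusted p = 0.0337, and 0.53, adjusted p = 0.0149).

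**Figure D4:**
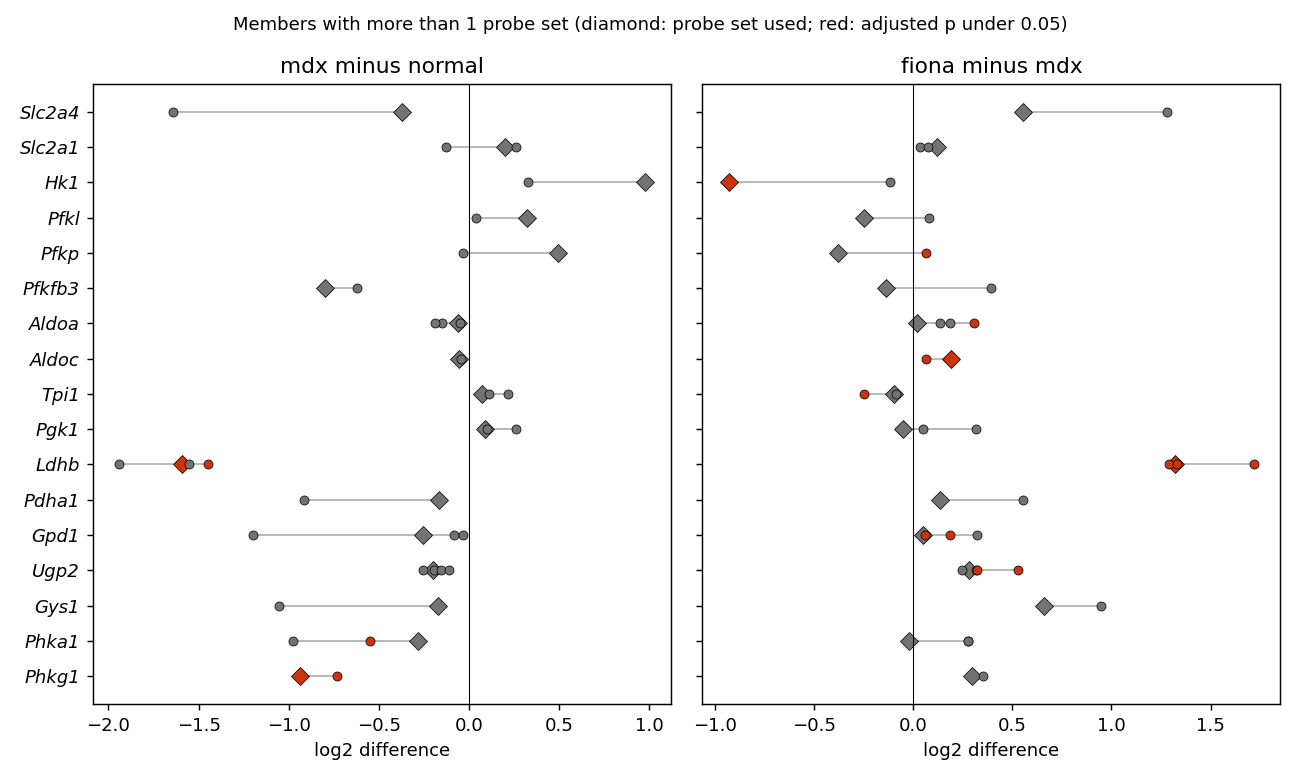
Log2 differences between mdx and normal muscle (left) and between fiona and mdx muscle (right) on every probe set of the members that have more than 1; diamonds are the probe sets used in the fit across genes, and red marks an adjusted p under 0.05 over 20383 probe sets. The 4 Ldhb probe sets lie together between -1.94 and -1.45, while Slc2a4 reaches from -1.64 to -0.37, and from -0.52 to -0.32 without mdx array 1.

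Members varied with the array set, computed without them, more than most genes. The median absolute difference between the sets was 0.38 for the members and 0.10 for all genes. Of the 30 members 29 lay above the median level, while the values for all genes in this paragraph cover every level. The part of the level in these gaps was not tested. Slc16a3, Slc2a4, Gys1, Gpd1 and Ldha were higher on every set 2 array than on every set 1 array within each of the 3 groups, by 2.38, 1.00, 1.00, 0.99 and 0.45 on average. That is 5 of 30 members (16.7%), against 5.24% of all genes, and 0 members and 4.36% of all genes had the opposite order. Of the 30 members, 19 differed more between the sets than between mdx and normal muscle, as did 41.1% of all genes, and 22 differed more between the sets than between fiona and mdx muscle, as did 34.9% of all genes.

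Slc16a3, the lactate exporter, showed this most plainly. Normal arrays 1, 2 and 6 measured 10.91, 10.96 and 10.36, and normal arrays 3, 4 and 5 measured 7.64, 7.76 and 7.53. Phkb was higher in set 1 by 0.83 and Gpd2 by 1.12. Pgam1, Ldhb and Hk2 differed between the sets by 0.10, 0.25 and 0.15 on average. Control signals also differed between the sets: the actin 3′ minus 5′ signal had a median of 0.63 in set 1 and 0.16 in set 2, and the 18S control medians were 7.74 and 11.8. The part of RNA quality in the difference between the sets was not tested.

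**Figure D5:**
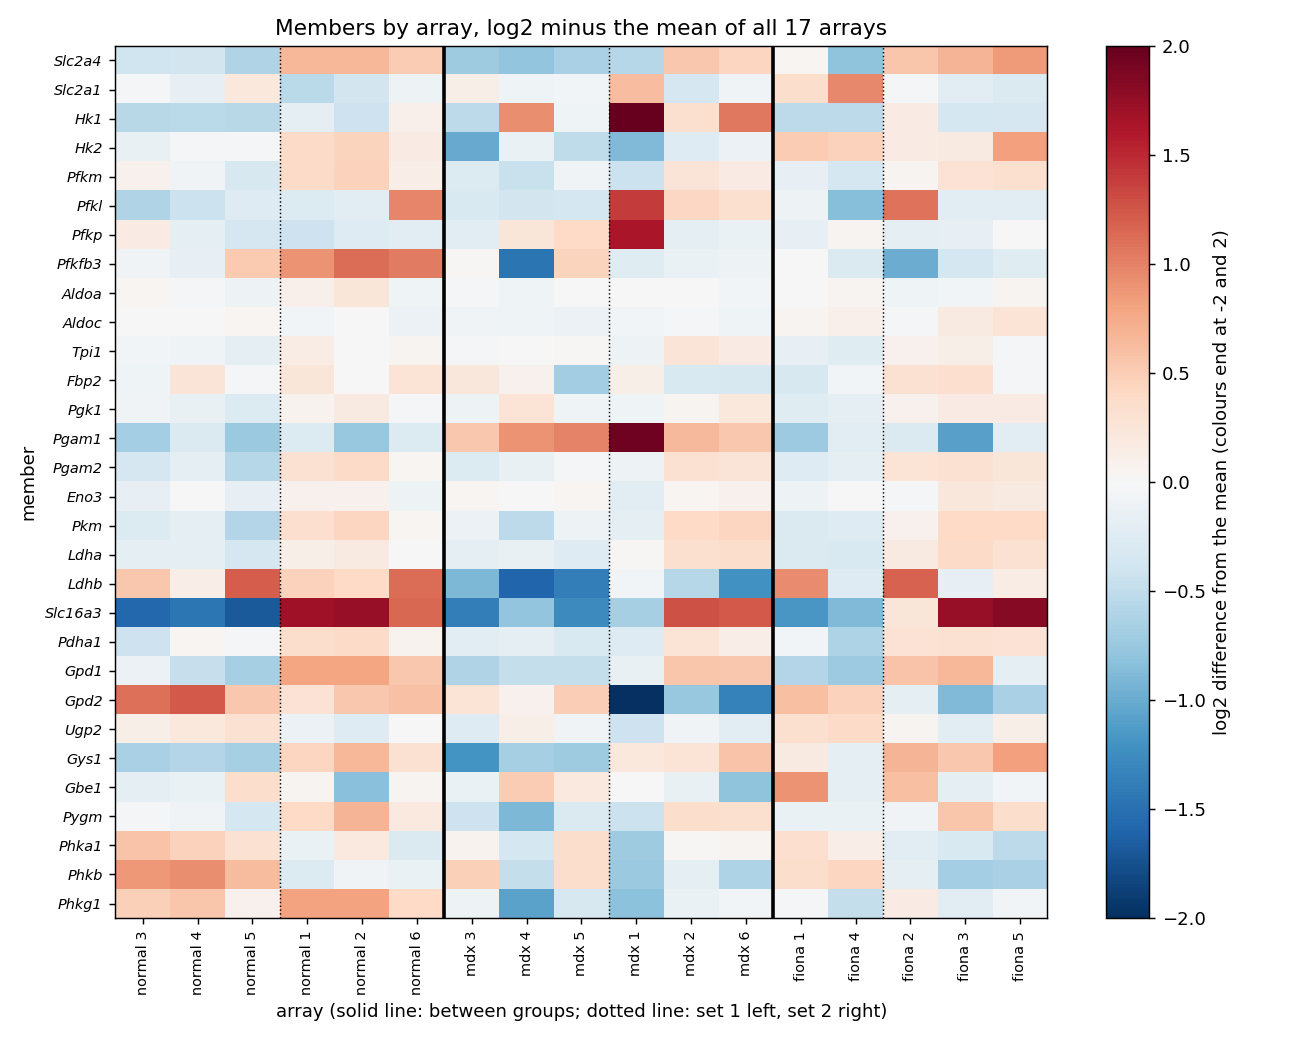
Log2 value of each of the 30 members on each of 17 arrays, minus that member's mean over all arrays (colours end at -2 and 2); solid lines part the groups and dotted lines part set 1 (left) from set 2 (right). The row of Slc16a3 changes from blue to red at the dotted lines, except that mdx array 1 (8.54) stays blue and fiona array 2 (9.45) is pale, and the row of Pgam1 is red only in the mdx arrays.

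Lists of other genes of the pathway were described by their counts, beside the 3.22% and 1.44% of all genes called higher and lower in mdx than in normal muscle and the 32.1% and 6.79% called higher and lower in fiona than in mdx muscle. Of 14 measured other enzymes of glycolysis, 0 rose and 1 fell between mdx and normal muscle: Mpc1, a subunit of the mitochondrial pyruvate carrier, fell by 0.50 (adjusted p = 0.0069) and was 0.27 higher in fiona than in mdx muscle (adjusted p = 0.0466). Another 5 of these genes were called higher in fiona muscle by 0.09 to 0.36, and 3 of them were at control level on all arrays. Of 15 other glycogen genes 1 rose in mdx muscle, Stbd1, which tethers glycogen to membranes (8.52 ± 0.55 on normal, 9.76 ± 0.40 on mdx and 9.18 ± 0.15 on fiona arrays; log2 difference 1.24, adjusted p = 0.0044). Between fiona and mdx muscle 3 rose and 1 fell, among them Gsk3a, a kinase that inhibits glycogen synthase (0.54, adjusted p = 0.0265), and Pygl, the liver phosphorylase (-0.66, adjusted p = 0.0292).

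Of 17 genes of glucose transport and insulin signalling 0 were called between mdx and normal muscle and 5 (against 32.1% of all genes) were higher in fiona than in mdx muscle. The largest of these was Tbc1d1, a regulator of GLUT4 traffic, at 7.33 ± 0.28 on normal, 6.70 ± 0.53 on mdx and 7.96 ± 0.51 on fiona arrays (1.26 between fiona and mdx, adjusted p = 0.0107). Insr, the insulin receptor, was 0.39 higher (adjusted p = 0.0185), and the other 3 were at control level on all arrays. Of 7 genes of the pyruvate dehydrogenase complex and its regulators 1 fell in mdx muscle, Pdk4, the kinase that switches the complex off, from 12.48 ± 0.74 to 10.85 ± 0.86 (adjusted p = 0.0214), and it measured 10.72 ± 0.24 in fiona muscle. Pdhb, the E1 beta subunit, was 0.20 higher in fiona than in mdx muscle (adjusted p = 0.0356).

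Of 13 genes of the pentose phosphate and hexosamine branches, which leave glycolysis at its upper steps, 1 rose in mdx muscle. Pgd, the 6-phosphogluconate dehydrogenase of the oxidative pentose phosphate pathway, averaged 7.24 ± 0.27 on normal, 8.74 ± 0.52 on mdx and 7.33 ± 0.48 on fiona arrays (log2 differences 1.50, adjusted p = 0.0016, and -1.41, adjusted p = 0.0042). Between fiona and mdx muscle 5 of the 13 fell and 1 rose. Tkt, transketolase, fell by 1.20 (adjusted p = 0.0135) and Taldo1, transaldolase, by 0.70 (adjusted p = 0.0152). The median difference of this list between fiona and mdx muscle was -0.43, against 0.08 over all genes.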

How the data were processed

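RNA of 17 samples was hybridised to Affymetrix arrays, 1 array each. The authors deposited a table of log2 values for each probe set. RMA and GCRMA are named in the submitters' processing notes; the sources used here do not say which of these was applied, and they name no genome build. Both methods summarise probes and normalize across arrays, which can compress low values.

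Probe sets were named through GEO's platform annotation: of 22690, 64 were Affymetrix controls, 691 had several symbols, 1555 had none and 20380 had 1 symbol, covering 12393 genes. For each gene the brightest probe set, by its average over the 17 arrays, was used. limma 3.58.1 in R 4.3.3 fitted the means of the 3 groups (lmFit and eBayes) to the deposited log2 values, and p-values were adjusted over all genes (Benjamini-Hochberg, threshold 0.05). No filter on level was applied. Intervals are 95%. The fit was tested on simulated data with independent values for each gene and array. Of 200 genes shifted on mdx arrays by 1 and by 2 on the log2 scale, 80% and 93.5% were recovered. The simulated arrays held no array sets and no sex pattern, so they cannot show how these affect the calls. Nothing in the labels ties samples to separate cages or litters, and p-values measure the spread between these samples.

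The members and lists were chosen with earlier results of these data known. Values per array are given for members called in any comparison, and up to 3 called genes of each other list may be named; differences and array values of members not called, and the Dmd and Utrn probe sets, were chosen after their values were seen. Control level is each array's median over 15 bacterial control probe sets. An array had a female pattern where Eif2s3y was below 6 and Xist above 6. Promoter sequences are from RefSeq (GRCm38.p6). No 2 arrays were identical. Figures were drawn with matplotlib 3.10.9 in Python 3.11.15.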

Additional observations from a re-analysis of the deposited data

Results flagged for a closer look

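In 90 groups of values, 1 for each member and group of mice, 6 had an array farther from the others than Dixon's 95% critical value allows. Chance gives about 1 in 20 such groups. On mdx array 1, the array with the high Gapdh 3′ minus 5′ signal, Pgam1 measured 9.66 (next 8.70), Pfkp 5.92 (next 4.68) and Eno3, the lowest of its group, 13.97 (next 14.17). The lowest mdx value of Pfkfb3 was 7.10 on array 4 (next 8.31). Pfkl reached 5.61 on normal array 6 (next 4.39), and Hk1 reached 5.63 on fiona array 2 (next 5.13).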

How the results depend on the processing

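For the members, 32 alternatives were tried, and 2 of them, the second brightest probe set of each gene and the fit without fiona arrays 3 and 5, were chosen after seeing the data. The 3 members called between mdx and normal muscle became 5 with median-centred arrays and 5 after quantile normalization, 10 with array weights, 7 with the array set as a block and 1 in set 2 alone. The 1 in set 2 was Pfkfb3, and Pgam1, Ldhb and Phkg1 were not called there. Here and in the counts that follow, the members called need not be those of the main fit. The 5 called between fiona and mdx muscle became 3 among genes above the median level, 2 on the arrays with the labelled sex pattern, 8 in set 1 alone, 0 in set 2 alone and 1 without fiona arrays 3 and 5. The replicate block gave 3. With the sex pattern as a covariate 3 members were called between mdx and normal muscle and 5 between fiona and mdx muscle, and no call of the main fit was lost. Since 4 of the 5 fiona arrays have the female pattern, sex and group overlap in that fit. Leaving out 1 array at a time gave 3 to 4, 4 to 5 and, between fiona and normal muscle, 0 to 2. With the second brightest probe sets Pfkp, at control level there, was called 0.065 higher in fiona than in mdx muscle (adjusted p = 0.0291), against -0.38 on the brightest. The calls of Pgam1 and Ldhb between mdx and normal muscle were lost only in set 2 alone, among 26 alternatives each. Same-numbered mdx and normal arrays deviated together in 5 of 6 pairs (correlations 0.34 to 0.61, the other 0.09) and lay in the same array set; pairs with a fiona array ran from -0.49 to 0.48. Since not every pair was over 0.1 and the labels tie the numbers to nothing, the numbers were not taken as pairing; with the replicate block 3 members and 528 genes were called between mdx and normal muscle. Over all genes, 578 calls between mdx and normal muscle became 2017 with median-centred arrays, 5289 with array weights, 1238 with the array set as a block, 2565 in set 1, 272 in set 2 and 382 on the arrays with the labelled sex pattern. The 4818 calls between fiona and mdx muscle became 2170, 2067 after quantile normalization, 509 with the replicate block, 656 above the median level, 1586 with the labelled sex pattern (1 fiona array, assumed to vary like the other groups), 110 in set 2, 270 without fiona arrays 3 and 5 and 3191 without fiona array 5. Between fiona and normal muscle, 54 genes were called with array weights, 466 with that 1 fiona array, 19 with the array set as a block and 29 in set 1. Probe sets at control level, such as Aldoc, carry no level.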
